A study of Homo sapiens with 4 samples.

Results

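Chromatin accessibility at 40 cell cycle and DNA replication genes was examined in 786-O cells with and without an ACSS2 inhibitor. The 40 were a given list of cyclins, cyclin-dependent kinases, replication factors and mitotic regulators, and all 40 symbols matched the 20037 protein-coding genes of the RefSeq annotation (GRCh38.p14). A gene was given a peak in a library when a deposited peak came within 1000 bp of either end of its annotated span, and the strongest such peak supplied its values. The list was fixed by gene name with no measured threshold, although it was drawn up with earlier results of these data known. For description, 21 were called S-phase genes, 16 mitotic genes, and CDK2, CDK4 and CDK6 belonged to neither class.

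The study asked how accessible regions change when 786-O cells, an established line from a human clear cell renal cell carcinoma, are given the inhibitor, which the labels name only as ACSS2i. ACSS2 is the enzyme that makes acetyl-CoA from acetate, and acetyl-CoA is the acetyl donor for histone acetylation. Cells of both groups were grown in the same medium for 24 h after addition of either DMSO, diluted 1 in 2000, or 5 µM ACSS2i in an equal volume, and were then frozen. Each group had 2 ATAC-seq libraries, in which the Tn5 transposase cuts and tags open DNA, and the labels do not say whether the 2 came from separate cultures.

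Progress through the cell cycle is driven by cyclins that bind and activate cyclin-dependent kinases. At the G1/S transition cyclin E with CDK2 and cyclin D with CDK4 or CDK6 release E2F factors from the retinoblastoma protein, and E2F then raises transcription of genes for origin licensing, the replicative helicase and nucleotide supply. Mitotic genes such as CCNB1, CDK1 and PLK1 peak later, in G2 and M, under control of the DREAM complex, B-MYB and FOXM1, and their promoters often carry CHR elements and CCAAT boxes bound by NF-Y.

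Most of the 40 genes had accessible ends in DMSO, and fewer did in ACSS2i. Peaks were found at 34 of the 40 in DMSO replicate 1, at 40 in DMSO replicate 2, at 24 in ACSS2i replicate 1 and at 31 in ACSS2i replicate 2, that is 85.0%, 100%, 60.0% and 77.5%. Over all protein-coding genes the shares were 52.6%, 60.0%, 32.5% and 40.7%, so the cell cycle genes stood above the genome in each library and moved from library to library in the same order. A peak was called in both DMSO libraries at 34 genes, of which 23 had a peak in all 4 libraries (67.6%, against 58% of all genes), 9 had a peak in a single ACSS2i library (26.5%, against 23.1%) and 2, GINS2 and BUB1, had none in ACSS2i (5.88%, against 18.9%). The other 6 genes, CCNE1, CDK6, CDC25B, CDT1, MCM5 and E2F2, had a peak in DMSO replicate 2 alone. No gene of the list could be gained, because each had a DMSO peak, and over the genome 0 of 7950 genes without one were gained in both ACSS2i libraries (0%). The count of lost genes depended on single libraries: without DMSO replicate 1 it was 8 of 40 (28.5% of all genes), and without ACSS2i replicate 2 it was 10 of 34 (38.1% of all genes).

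These counts rest on lists of very different length. The 4 libraries, in the order DMSO replicates 1 and 2 and then ACSS2i replicates 1 and 2, which is used for every set of 4 values here, held 34696, 50294, 16400 and 22044 peaks. The sources used here give no read totals. The fragment depth at each summit, recovered from the deposited fold and p, gave a genome background of 2.06, 1.75, 2.32 and 3.16 fragments, and peaks just past the authors' limit (−log10 q of 2 to 2.5) had a median of 11, 9, 12 and 14 fragments. A peak in ACSS2i thus needed more fragments to enter its list than a peak in DMSO replicate 2, and the part of this in the missing peaks was not tested. With 2 libraries against 2 the smallest two-sided exact permutation p is 0.333, so no test is given and each difference is set beside the spread within the groups. With every list cut to an equal length of 16400 peaks by q, the 40 genes had 27, 29, 24 and 28 peaks, and 34.8%, 39.0%, 32.5% and 34.5% of all genes had one. At equal length 1 of 26 genes, GINS2, was lost (5.29% of all genes) and 21 of 26 were kept in all 4 (79.5%). In these shortened lists 10 of the genes had no DMSO peak and could be gained. Of these 0 were, against 98 of 11510 over all genes (0.851%).

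As a check of the labelled cell type, gene-end peaks of 9 kidney tubule and renal carcinoma genes were present at 7, 7, 5 and 7. Over all protein-coding genes the shares were 52.6%, 60.0%, 32.5% and 40.7%. KRT8 and KRT18 shared a single peak, so it was counted for both genes. The kidney cadherin gene CDH16 had a peak in all 4 libraries, and PAX2 and CA9 had none. Of the 5 endothelial markers 0 had a peak in any library, and of the 5 immune markers 1, 2, 1 and 1 did. The immune gene with a peak in all 4 libraries, CD68, shared it with EIF4A1. Of 5 fibroblast markers 2, 3, 1 and 1 had a peak, and of 5 neuronal or muscle markers 2, 2, 0 and 1. The peak of the fibroblast marker PDGFRB was shared with CSF1R.

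**Figure D1:**
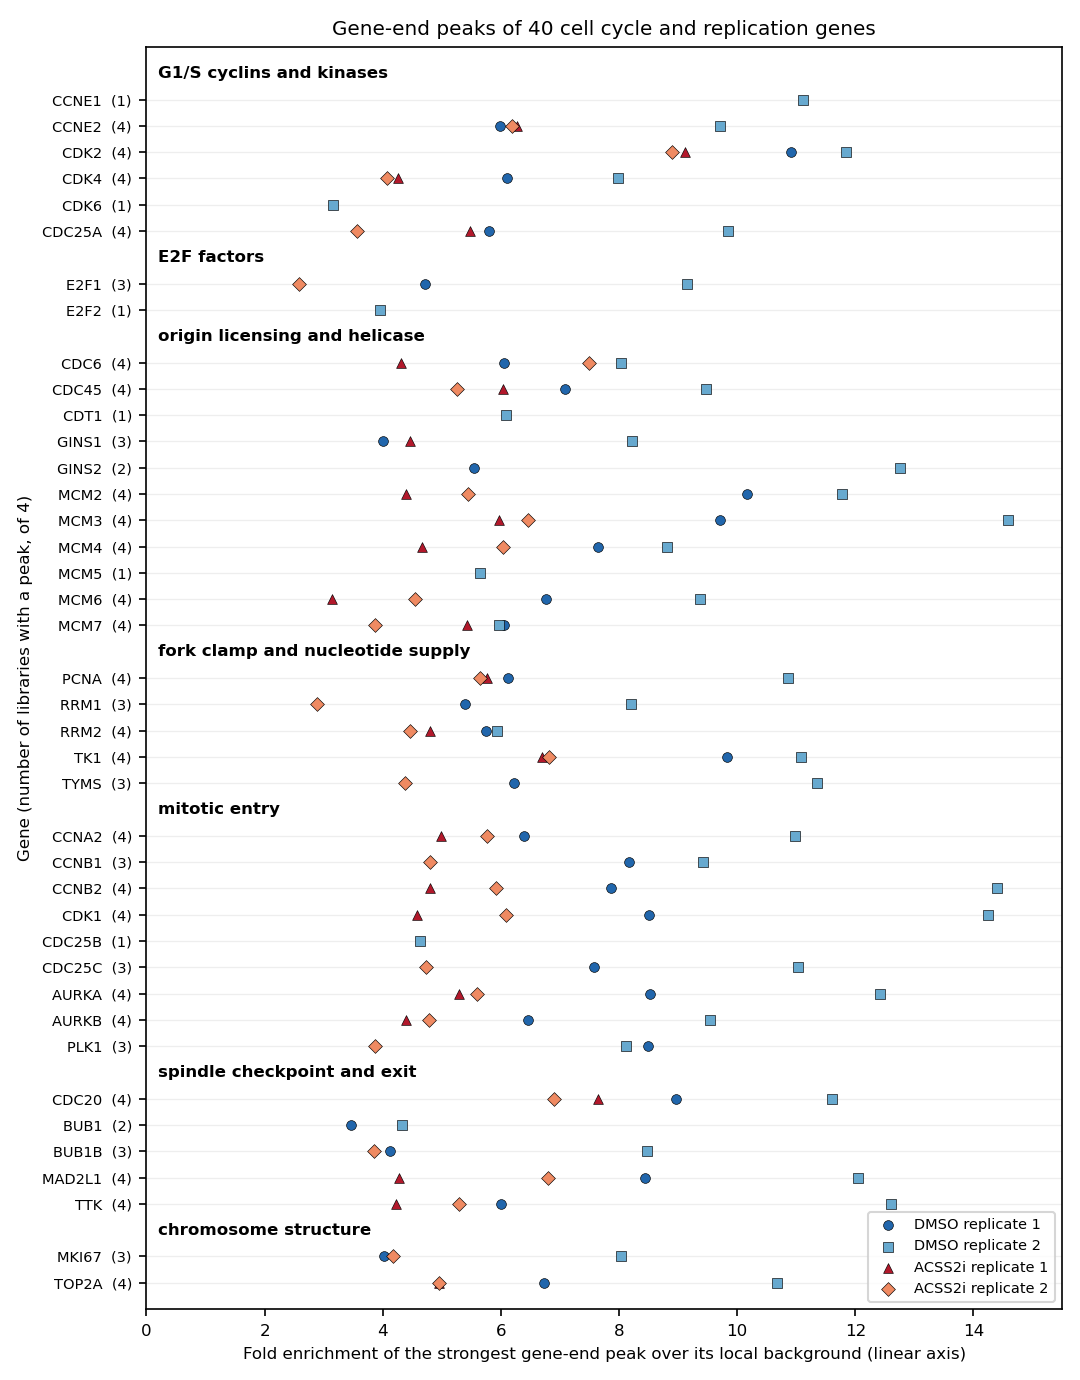
Fold enrichment of the strongest gene-end peak of each of the 40 genes in each of the 4 libraries, grouped by role. Each symbol is 1 library, a missing symbol means no peak within 1000 bp, and the number after each name counts the libraries with a peak. The DMSO symbols lie to the right of the ACSS2i symbols for 21 of the 23 genes present in all 4.

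The plot of fold by role gives every value of the list. Fold is the authors' value for how far a summit rises above the local background of its own library. For 32 of the 34 genes with both DMSO peaks the fold was higher in DMSO replicate 2 than in replicate 1, as for 95.1% of all genes, so the DMSO values of a gene differ widely between its 2 libraries.

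Among the G1/S cyclins and kinases, 4 of 6 had a peak in all 4 libraries. Over all protein-coding genes 6075 of 20037 had one, and over the whole list 23 of 40. These are the backgrounds for this count and for those of the other role groups below, which are out of all genes of a role. The role groups are small, and differences between them were not tested. CDK2, the partner of cyclin E, had the strongest one, with folds of 10.9, 11.8, 9.12 and 8.90, and both ACSS2i values were below both DMSO values. That peak was not at CDK2's own promoter by position: its summit lay 1058 to 1115 bp beyond the upper end of CDK2 and 45 to 102 bp from an end of RAB5B. At CDK2's other end there were weaker peaks of fold 6.61, 3.92 and 4.22 in the first 3 libraries and none in ACSS2i replicate 2. CCNE2, a cyclin E gene, had folds of 5.98, 9.71, 6.27 and 6.18, so its groups overlapped, and its summits lay nearer to NDUFAF6 than to CCNE2. With a window of 500 bp CCNE2 counted as lost, making 3 of 34 genes (19.7% of all genes).

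CDK4, a cyclin D partner, had folds of 6.11, 7.98, 4.26 and 4.08, with the ACSS2i values below both DMSO values. CDC25A, the phosphatase that activates CDK2, had folds of 5.79, 9.84, 5.47 and 3.56, again lower in both ACSS2i libraries. CCNE1, the other cyclin E gene, had a strong peak of fold 11.1 in DMSO replicate 2 alone. CDK6, the second cyclin D partner, had an end peak of fold 3.16 in DMSO replicate 2 alone. Peaks that reached within 1000 bp of its inner annotated start had folds of 3.75, 3.71, 3.60 and 3.70 in the 4 libraries. Their summits lay at offsets of -1751, 31, 59 and -829 bp from that start in genome coordinates, so not all sat at the start. The strongest peak inside CDK6 lay far from its start, at chr7:92641876-92642782 in DMSO replicate 1, with folds of 5.98, 9.61, 7.57 and 6.33 that overlapped between the groups.

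The E2F factors had few peaks. E2F1, the activator that drives S-phase genes, had folds of 4.71 and 9.16 in DMSO, none in ACSS2i replicate 1 and 2.58 in ACSS2i replicate 2. The last of these sat close to the limit, at a −log10 q of 2.70, and at a threshold of 5 E2F1 counted as lost, as did RRM1 and GINS2, making 3 of 31 (29.8% of all genes). E2F2, a related activator, had a peak of fold 3.96 in DMSO replicate 2 alone.

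In the origin licensing and helicase group, 7 of 11 genes had a peak in all 4 libraries. MCM2 to MCM7 encode the 6 subunits of the replicative helicase. MCM3 had folds of 9.71, 14.6, 5.97 and 6.47, and MCM2 had 10.2, 11.8, 4.39 and 5.44. For both genes the ACSS2i values were below both DMSO values, and for MCM3 the DMSO values lay farther apart than the gap between the groups. The MCM2 peak also lay within 1000 bp of TPRA1. MCM6 came nearest to being lost among the genes kept in all 4, with folds of 6.77, 9.38, 3.15 and 4.54 and a −log10 q of 2.02 in ACSS2i replicate 1. MCM7 had the widest peak of the list, 3048 bp in DMSO replicate 1, and 1692, 1271 and 1324 bp in the others. It was shared with AP4M1 and had folds of 6.05, 5.96, 5.42 and 3.88. MCM4, whose peak was shared with PRKDC, kept its peak in all 4 libraries with folds of 7.65, 8.82, 4.67 and 6.04. In ACSS2i replicate 1 the MCM4 summit lay 694 bp from MCM4 and 111 bp from PRKDC. MCM5 stood apart from the other subunits, with an end peak of fold 5.64 in DMSO replicate 2 alone. Inside MCM5 a further peak had folds of 6.62, 10.5 and 4.36 in the first 3 libraries and was absent from ACSS2i replicate 2.

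CDC6 and CDT1 load the MCM helicase at origins. CDC6 had folds of 6.06, 8.04, 4.32 and 7.49, and its ACSS2i replicate 2 value lay between the DMSO values. CDT1 had a peak of fold 6.08 in DMSO replicate 2 alone. CDC45 and the GINS proteins complete the active helicase. CDC45, whose peak was shared with UFD1, had folds of 7.09, 9.47, 6.04 and 5.26. GINS1 had folds of 4.01, 8.22 and 4.46 in the first 3 libraries and no peak in ACSS2i replicate 2. It was the single gene of the list whose ACSS2i peak came from replicate 1 alone.

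GINS2, another GINS subunit, lost its peak. In DMSO the folds were 5.54 and 12.8, the −log10 q values 11.0 and 62.6 and the summit depths 26 and 83 fragments, with summits 69 and 114 bp upstream of the start. By q this peak ranked at percentiles of 54.3 and 92.1 of the DMSO lists, and no peak of either ACSS2i list came within 1000 bp of either end. GINS2 stayed lost under each alternative window, threshold and list length. A narrower window, a stricter threshold or a shorter list only removes peaks, so those could change the call only by removing a DMSO peak. Leaving out a library cannot undo a loss as defined here, so those settings are no check of it. BUB1, a spindle checkpoint kinase, was the other lost gene and had a much weaker peak, with folds of 3.47 and 4.33, −log10 q of 4.66 and 13.9 and percentiles of 20.3 and 44.2. Inside BUB1 a further peak at chr2:110674713-110675443 in DMSO replicate 1 had folds of 7.15, 8.38 and 5.00 in DMSO replicates 1 and 2 and ACSS2i replicate 2, and was absent from ACSS2i replicate 1.

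The promoters of the lost genes are shown from 250 bases before to 50 after the annotated start, as RefSeq (GRCh38.p14) gives them, because these are the stretches whose peaks went missing. GINS2 is at chr16:85688905-85689204 and BUB1 at chr2:110678014-110678313, both on the minus strand and printed in the direction of transcription. Capitals mark matches on either strand to TTTNNCGC (E2F-like), TTTGAA (CHR-like) or CCAAT (the NF-Y box). GINS2 has an E2F-like match at position -31, counting the start as 0, on the strand opposite to the printed letters, and CCAAT at -158. BUB1 has a pair of CCAAT matches at -79 and -54.
GINS2: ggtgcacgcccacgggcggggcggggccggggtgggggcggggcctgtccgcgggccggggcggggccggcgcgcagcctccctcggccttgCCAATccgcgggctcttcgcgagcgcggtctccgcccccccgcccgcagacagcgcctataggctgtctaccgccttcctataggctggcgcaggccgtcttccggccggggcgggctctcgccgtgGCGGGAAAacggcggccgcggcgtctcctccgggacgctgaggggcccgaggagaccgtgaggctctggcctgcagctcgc
BUB1: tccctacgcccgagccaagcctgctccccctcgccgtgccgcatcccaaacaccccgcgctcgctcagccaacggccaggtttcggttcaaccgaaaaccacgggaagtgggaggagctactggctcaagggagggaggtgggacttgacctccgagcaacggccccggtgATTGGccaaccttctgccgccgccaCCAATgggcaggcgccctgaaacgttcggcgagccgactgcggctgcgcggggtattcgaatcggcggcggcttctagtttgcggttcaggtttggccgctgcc

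In the group of the fork clamp and nucleotide supply, all 5 genes had both DMSO peaks and 3 had a peak in all 4 libraries. TK1, thymidine kinase, had folds of 9.83, 11.1, 6.69 and 6.82 and stood near the top of each list, at percentiles of 99.0, 99.1, 92.2 and 98.1. Its peak was shared with AFMID. RRM2, the regulated subunit of ribonucleotide reductase, had folds of 5.75, 5.93, 4.80 and 4.45. In ACSS2i replicate 2 the counted RRM2 summit lay 1934 bp upstream, and the summit nearest to its start, 72 bp away, had a fold of 3.34. RRM1, the large subunit, had folds of 5.39, 8.20 and 2.89 in both DMSO libraries and ACSS2i replicate 2, the last at a −log10 q of 2.08. TYMS, thymidylate synthase, had 6.23, 11.3 and 4.37 in the same 3 libraries. For both RRM1 and TYMS the missing library was ACSS2i replicate 1.

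PCNA, the sliding clamp, had folds of 6.12, 10.9, 5.77 and 5.65 at its upper end, where the peak was shared with CDS2. DMSO replicate 2 stood apart, and DMSO replicate 1 lay close to the ACSS2i values. At its inner annotated start PCNA had stronger peaks, with folds of 8.74, 13.3, 6.20 and 9.58, and there the groups overlapped.

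Among the genes of mitotic entry, 5 of 9 had a peak in all 4 libraries and 3 in both DMSO libraries and ACSS2i replicate 2. CDK1, the kinase that drives mitosis, had folds of 8.50, 14.3, 4.58 and 6.08. AURKA, a centrosome kinase whose peak was shared with CSTF1, had 8.53, 12.4, 5.29 and 5.59. CCNB2, a cyclin B gene, had 7.87, 14.4, 4.79 and 5.92. In all 3 genes both ACSS2i folds were below both DMSO folds. The AURKA summit lay nearer to CSTF1 than to AURKA in every library except ACSS2i replicate 1.

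CCNB1, the main cyclin B gene, had folds of 8.18, 9.42 and 4.80 and no peak in ACSS2i replicate 1. PLK1, a kinase of mitotic entry whose peak was shared with DCTN5, had 8.50, 8.12 and 3.87 and was missing from the same library. CDC25C, a phosphatase that activates CDK1, had 7.58, 11.0 and 4.74 at its end, likewise with none in ACSS2i replicate 1. CDC25C was the single gene among the 12 in the strongest of 4 classes of DMSO peak strength that did not keep its end peak in all 4 libraries. Its end peak was shared with FAM53C, and its inner annotated starts had a peak in all 4 libraries, with folds of 8.66, 14.8, 8.51 and 8.69 and percentiles of 95.3, 99.5, 97.4 and 99.4. CDC25B, a related phosphatase, showed a similar arrangement, with an end peak of fold 4.63 in DMSO replicate 2 alone and inner-start peaks of 5.83, 9.73, 3.97 and 3.68. The CDC25B end peak was shared with CENPB, and its summit lay nearer to CENPB than to CDC25B.

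CCNA2, the cyclin A gene that acts in S phase and G2, had folds of 6.39, 11.0, 4.99 and 5.76 in a peak shared with BBS7. AURKB, the kinase of the chromosomal passenger complex, had 6.45, 9.53, 4.39 and 4.78. In both genes the ACSS2i values were the lowest of the 4.

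In the spindle checkpoint and mitotic exit group, 3 of 5 genes had a peak in all 4 libraries. CDC20, the activator of the anaphase-promoting complex, had the strongest counted gene-end peak among mitotic genes by q, with folds of 8.96, 11.6, 7.65 and 6.89 and percentiles of 96.4, 97.5, 92.0 and 95.0. MAD2L1, the checkpoint protein that binds CDC20, had folds of 8.43, 12.1, 4.28 and 6.80. TTK, the kinase that starts checkpoint signalling, had 6.0, 12.6, 4.22 and 5.28. BUB1B, a further checkpoint protein, had 4.12, 8.48 and 3.84 and no peak in ACSS2i replicate 1. The ACSS2i values of these 4 genes were below both of their DMSO values where a peak was called.

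Of the 2 genes of chromosome structure, TOP2A, the topoisomerase that untangles sister chromatids, had folds of 6.73, 10.7, 4.95 and 4.94. MKI67, the proliferation marker Ki-67, had 4.03, 8.04 and 4.18 and no peak in ACSS2i replicate 1, and its ACSS2i replicate 2 value lay between the DMSO values.

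Promoter letters were compared between the classes for the 34 genes with an entry in the RefSeq promoter table, which covers 15842 genes. Each member gave 1 promoter, at its outermost annotated start. Starts further inside a gene, such as those under the inner peaks of CDC25C and CDC25B, were not read. The shares are descriptions with no test. An E2F-like match (TTTNNCGC, either strand) was present in 13 of 18 S-phase promoters (72.2%), in 1 of 14 mitotic promoters (7.14%) and in 8.93% of all promoters of the same length. A CHR-like match (TTTGAA) was present in 1 of 18 S-phase promoters (5.56%), in 8 of 14 mitotic promoters (57.1%) and in 12.2% of all promoters. CCAAT was present in 61.1% of S-phase promoters, 78.6% of mitotic promoters and 36.4% of all. TTTGAA and CCAAT occurred together in 7 of the 14 mitotic promoters, against 5.11% of all. Over the genome, genes whose end peak was lost carried the E2F-like letters in 10.2% of promoters and genes with a peak in all 4 libraries in 11.3%. CCAAT was in 31.2% of the lost and 43.0% of the kept genes' promoters, and TTTGAA in 9.92% and 8.89%. Lost genes mostly had weak DMSO peaks, and these shares were not matched on peak strength. A match describes letters and says nothing of binding, and in MCM2, MCM6, MCM7, E2F1, E2F2 and MKI67 some matches overlap each other. AURKA, TTK, MCM4, CCNE2, CDK2 and MCM5 had no entry.

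**Figure D2:**
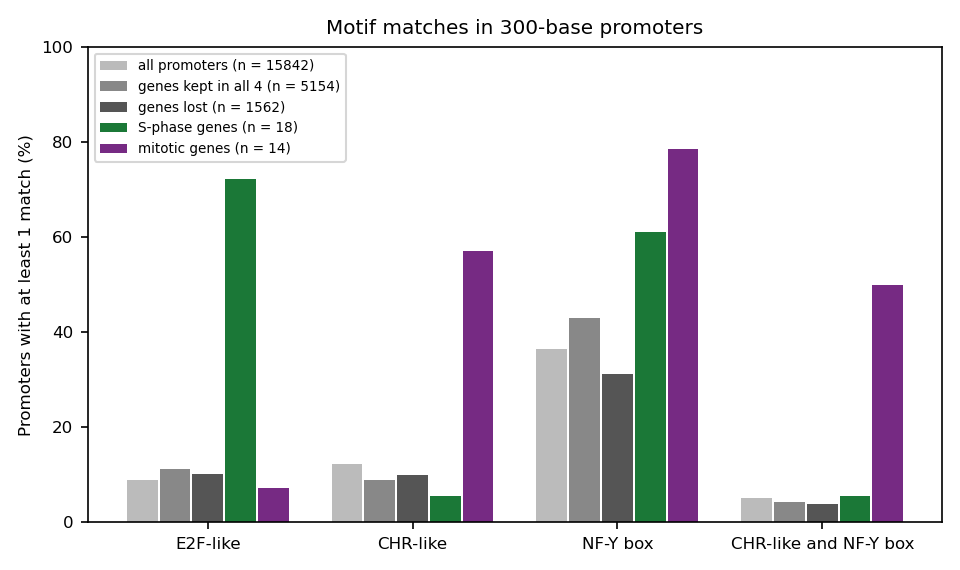
Percent of 300-base promoters with at least 1 match on either strand, for all promoters, genes kept in all 4 libraries, genes lost, S-phase genes and mitotic genes. For the E2F-like letters the S-phase bar stands above those of the other sets, at 72.2%. For the CHR-like letters and the NF-Y box the mitotic bar does, at 57.1% and 78.6%.

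The next promoters show how the letters lie in members with strong peaks. TK1 (chr17:78187155-78187454, minus) and MCM3 (chr6:52284693-52284992, minus) were the S-phase genes of highest DMSO percentile with printed sequence, CDC20 (chr1:43358731-43359030, plus) was the mitotic gene of highest percentile, and CDK1 (chr10:60778081-60778380, plus) followed AURKA. E2F1 (chr20:33686336-33686635, minus) was added after its matches had been seen. MCM3 has 3 E2F-like and 3 CCAAT matches, E2F1 has 4 and 3, and CDC20 has 2 CHR-like and 2 CCAAT matches. TK1 has 2 annotated starts, and the stretch printed, from its outer start, has no match to any of the 3. CDK1 is the mitotic promoter with an E2F-like match, at position 19, and has TTTGAA at -161 and CCAAT at -150.
TK1: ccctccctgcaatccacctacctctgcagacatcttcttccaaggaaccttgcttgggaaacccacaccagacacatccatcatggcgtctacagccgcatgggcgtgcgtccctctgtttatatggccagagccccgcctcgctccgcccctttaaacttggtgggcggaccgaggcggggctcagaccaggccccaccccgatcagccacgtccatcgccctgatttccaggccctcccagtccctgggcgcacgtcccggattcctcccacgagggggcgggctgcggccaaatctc
MCM3: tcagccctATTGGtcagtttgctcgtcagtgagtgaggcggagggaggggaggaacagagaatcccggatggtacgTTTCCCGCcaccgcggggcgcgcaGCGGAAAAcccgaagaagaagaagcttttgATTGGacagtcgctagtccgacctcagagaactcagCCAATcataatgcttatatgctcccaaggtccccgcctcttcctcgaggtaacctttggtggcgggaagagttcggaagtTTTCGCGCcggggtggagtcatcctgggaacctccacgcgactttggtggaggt
E2F1: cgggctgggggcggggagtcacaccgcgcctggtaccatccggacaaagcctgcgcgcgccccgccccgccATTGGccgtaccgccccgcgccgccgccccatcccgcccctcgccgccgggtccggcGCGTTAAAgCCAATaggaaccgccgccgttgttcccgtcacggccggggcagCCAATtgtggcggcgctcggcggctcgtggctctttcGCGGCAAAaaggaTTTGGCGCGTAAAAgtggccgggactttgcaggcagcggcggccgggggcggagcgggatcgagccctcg
CDC20: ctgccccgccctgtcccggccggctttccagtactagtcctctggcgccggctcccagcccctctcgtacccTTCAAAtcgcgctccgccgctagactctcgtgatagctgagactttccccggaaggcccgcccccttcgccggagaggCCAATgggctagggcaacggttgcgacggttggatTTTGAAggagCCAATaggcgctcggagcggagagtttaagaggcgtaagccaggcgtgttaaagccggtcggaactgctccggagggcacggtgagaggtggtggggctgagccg
CDK1: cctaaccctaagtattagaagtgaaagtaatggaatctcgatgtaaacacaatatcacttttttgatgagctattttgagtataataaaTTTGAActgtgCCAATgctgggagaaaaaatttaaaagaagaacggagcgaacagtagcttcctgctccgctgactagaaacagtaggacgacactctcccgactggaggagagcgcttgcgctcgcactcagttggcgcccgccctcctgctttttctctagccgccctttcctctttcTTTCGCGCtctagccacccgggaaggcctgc

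Summits lay close to the annotated starts. Among members in the promoter table, 27 of 29, 32 of 34, 19 of 19 and 22 of 26 summits were within 250 bp of the nearest annotated start, and the median position was -69, -74, -25 and -62.5 bp. More summits were upstream than downstream in each library, at 19, 26, 13 and 16. The summits beyond 250 bp in ACSS2i replicate 2 were those of CCNA2, CDC25C, TYMS and RRM2.

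**Figure D3:**
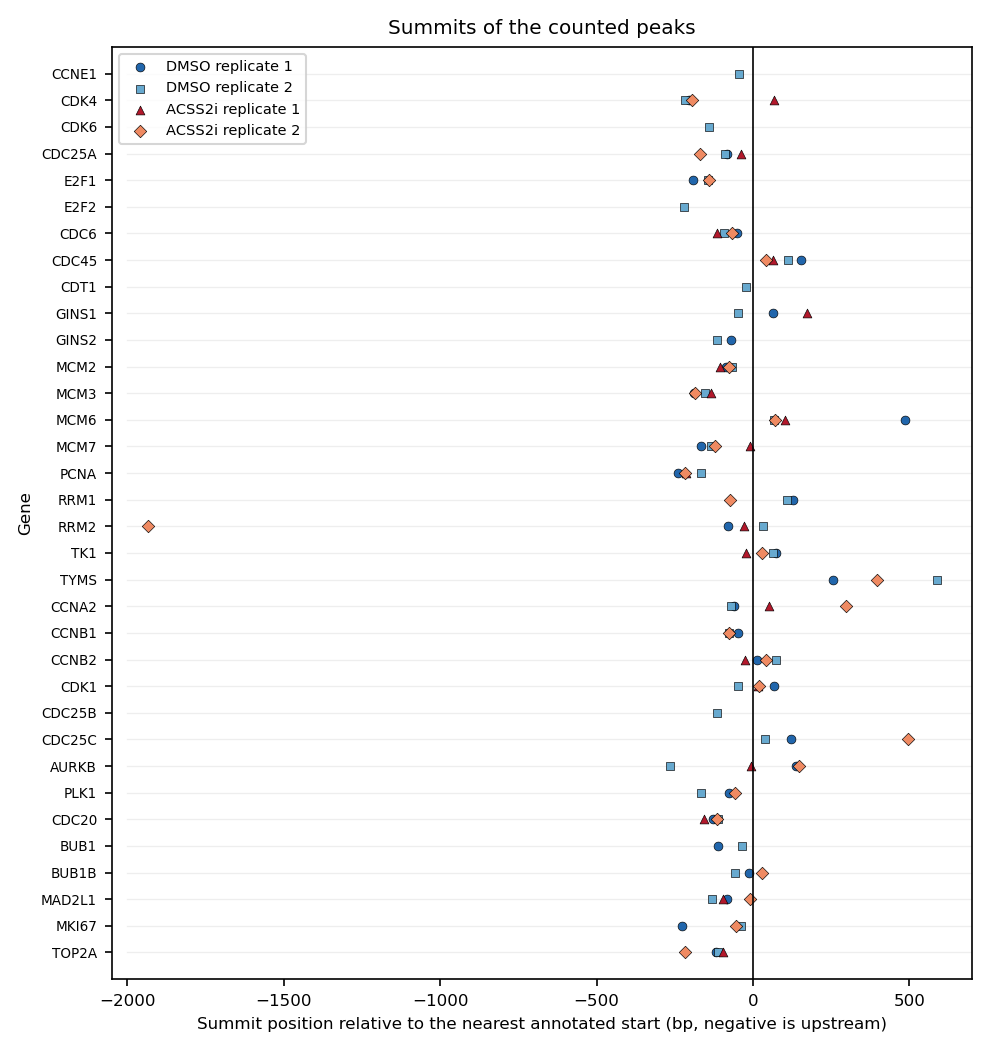
Position of the counted summit relative to the nearest annotated start (bp, negative is upstream) for the 34 genes in the promoter table, with 1 symbol per library. Most symbols fall within 250 bp of the start, and the RRM2 summit of ACSS2i replicate 2 stands at -1934 bp.

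S-phase and mitotic genes were then set side by side. Of S-phase genes 17, 21, 13 and 15 of 21 had a peak, and of mitotic genes 15, 16, 9 and 14 of 16. Among genes with both DMSO peaks, 1 of 17 S-phase genes (GINS2) and 1 of 15 mitotic genes (BUB1) were lost, and 12 (70.6%) and 9 (60.0%) were kept in all 4. The classes parted in ACSS2i replicate 1, which held 13 of the 17 S-phase peaks and 9 of the 15 mitotic peaks, against 61.9% of all genes. In ACSS2i replicate 2 the counts were 15 of 17 and 14 of 15, against 77.2% of all genes. All 5 mitotic genes with a single ACSS2i peak had it in replicate 2. Without ACSS2i replicate 1 the mitotic count kept was thus 14 of 15 and the S-phase count 15 of 17, against 77.2% of all genes. Without ACSS2i replicate 2 the lost counts were 6 of 15 and 4 of 17, against 38.1% of all genes. Leaving out DMSO replicate 1 gave lost counts of 5 of 21 S-phase and 2 of 16 mitotic genes (28.5% of all genes). Leaving out ACSS2i replicate 1 gave 2 of 17 S-phase genes (22.8% of all genes). The difference between the classes was not tested, since genes are not replicates and the order changed with the library.

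Median folds of S-phase genes were 6.06, 9.38, 5.42 and 5.26, and those of mitotic genes 7.58, 10.8, 4.79 and 5.11. These medians are over the genes with a peak in each library, which differ between libraries. Over the 12 S-phase and 9 mitotic genes with a peak in all 4 libraries, the medians were 6.45, 9.59, 5.45 and 5.55 for S-phase genes and 7.87, 12.1, 4.79 and 5.76 for mitotic genes. The order of the classes in ACSS2i replicate 2 thus depended on which genes were counted. The medians over all gene-end peaks were 6.21, 8.91, 4.89 and 4.65. Median widths were 886, 1029, 621 and 677 bp for S-phase genes and 944, 1087, 588 and 730.5 bp for mitotic genes. By percentile within a list, S-phase medians were 74.1, 85.9, 63.9 and 74.4 and mitotic medians 75.5, 78.1, 46.9 and 65.1, beside 66.7, 77.2, 56.0 and 60.4 for all gene-end peaks. Ranks from lists of unequal length show no change, so these are levels within each library.

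Loss was then read against peak strength in DMSO, taken as the lower of a gene's 2 DMSO percentiles by q and split into 4 equal classes of the 10471 genes with both DMSO peaks. In the weakest class the list had 4 genes, of which 1 (BUB1) was lost and 0 were kept in all 4, against 54.5% lost and 11.7% kept over all genes. In the next class it had 9, of which 1 (GINS2) was lost and 4 were kept, against 17.3% and 45.1%. In the class above, 0 of 9 were lost and 8 were kept, against 3.14% and 78.9%. In the strongest class 0 of 12 were lost and 11 were kept, against 0.611% and 96.4%. The cell cycle genes were thus placed mostly in the upper classes, and within each class their kept counts lay near the share of all genes. From weakest to strongest, S-phase genes in the 4 classes numbered 1, 6, 4 and 6, and mitotic genes 3, 3, 4 and 5.

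**Figure D4:**
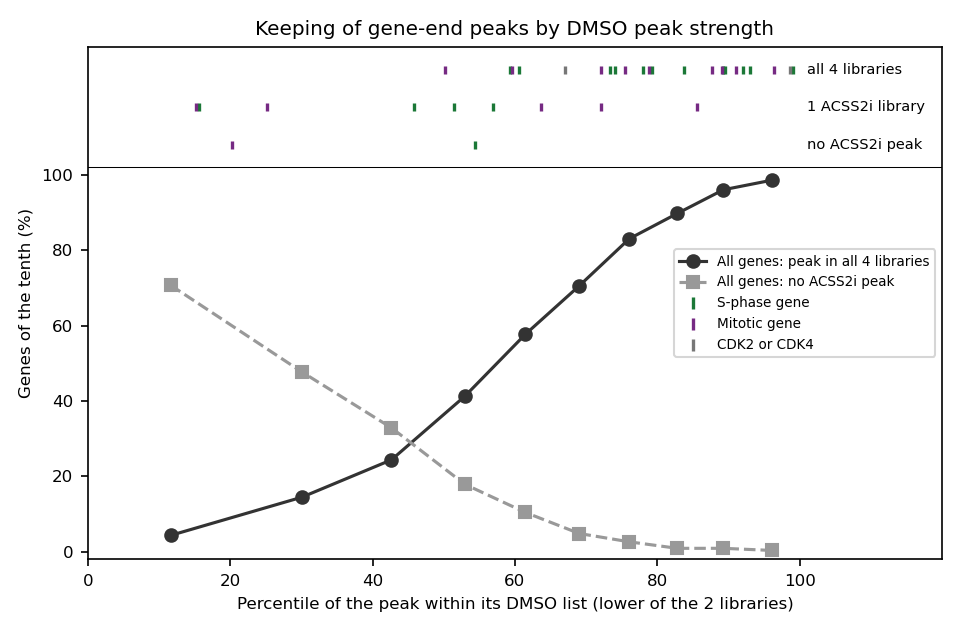
Percent of all genes kept in all 4 libraries (circles) and lost (squares) in 10 equal classes of DMSO peak strength, with each cell cycle gene drawn as a tick in the upper panel by its outcome. The x axis is the lower of a gene's DMSO percentiles. The kept curve rises with strength, and the 2 ticks in the row without an ACSS2i peak, BUB1 and GINS2, lie at 20.3 and 54.3.

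For the 23 genes with a peak in all 4 libraries, both ACSS2i folds were below both DMSO folds in 21, as in 84.4% of the 6075 genes with such peaks. The exceptions were CCNE2 and CDC6. These 23 are the genes with peaks strong enough to be called in every library, not the whole list. Widths were lower in 19 of 23, against 81.9% of all genes, with CCNA2, CDK1, PCNA and RRM2 overlapping. Summit depth divided by the library's genome background was lower in ACSS2i in 23 of 23, against 99.6%. On the log2 scale the median change was -1.79 for these 23 genes and -1.72 for all 6075, and it ran from -2.05 for MCM3 to -1.44 for TTK. S-phase and mitotic medians were -1.79 and -1.71. Between the DMSO libraries alone the median difference was 1.25 for the 23 genes and 1.28 for all genes, replicate 2 being higher, so the spread within DMSO was most of the size of the change. Between the ACSS2i libraries it was 0.24 and 0.08. The change of the cell cycle genes was thus close to that of all genes, and what sets the level of a whole library was not tested.

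To set genes apart from the level of the library, each was ranked by q among the same 6075 genes in every library, where 0 is the weakest and 100 the strongest. Both ACSS2i ranks were below both DMSO ranks in 4 of 23 genes, CDK1, AURKA, MCM2 and MCM3, against 16.5% of all genes. MCM3 had ranks of 80.9, 85.2, 62.6 and 64.4, MCM2 had 88.0, 64.2, 33.0 and 63.8, CDK1 had 70.1, 83.1, 36.2 and 64.2, and AURKA had 75.8, 76.6, 65.1 and 68.7. For MCM2 the groups were parted by less than 1 point. Both ACSS2i ranks were above both DMSO ranks in 5, CCNA2, CCNE2, CDC20, CDC45 and PCNA, against 19.1%. CCNA2 had ranks of 15.9, 22.4, 37.6 and 45.0, and CDC20 had 89.6, 88.5, 90.4 and 91.1, with its groups again parted by less than 1 point. The other 14 overlapped, so the shares in each direction were near those of all genes. CDK2 ranked highest in the mean of both groups, at 96.7 and 98.6, TTK lowest in DMSO at 14.7 and MCM6 lowest in ACSS2i at 15.3. The ranked peaks of CDK2 and CCNE2 are those described above, with summits nearer to RAB5B and NDUFAF6. Median ranks were 57.8, 53.1, 58.2 and 63.0 for S-phase genes and 46.0, 62.3, 37.3 and 52.6 for mitotic genes.

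**Figure D5:**
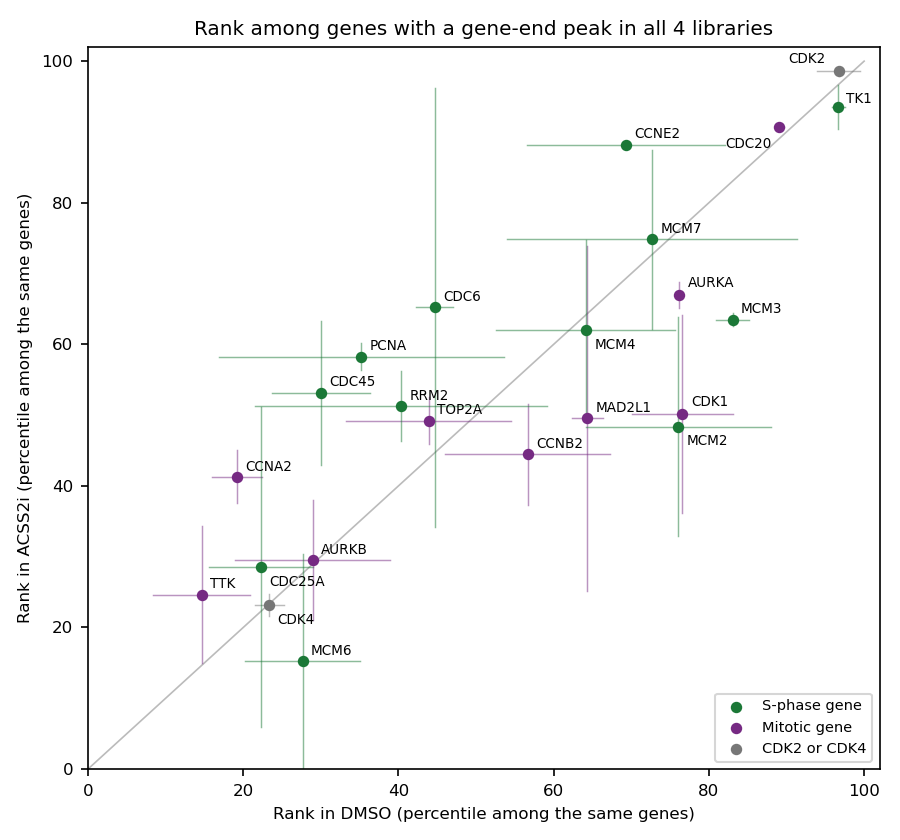
Rank by q of 23 genes among all 6075 that kept a gene-end peak in every library, in DMSO (x) and ACSS2i (y). Points are the mean of 2 libraries, lines join the 2 libraries' values, and the diagonal marks equal ranks. MCM3, AURKA, CDK1 and MCM2 lie below the diagonal, and CCNA2, PCNA, CDC45 and CCNE2 above it.

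Further genes of the same pathways behaved within a similar range. Of 33 other replication genes, 30 had both DMSO peaks, of which 18 were kept in all 4 libraries, 8 had a single ACSS2i peak and 4 were lost. The lost ones were RFC3, RFC4 and RFC1, subunits of the clamp loader that places PCNA on DNA, and WDHD1, which links the helicase to polymerase alpha. Their DMSO folds were 7.28 and 11.6 for RFC3, 6.0 and 9.17 for RFC4, 4.03 and 8.43 for RFC1 and 4.58 and 12.4 for WDHD1, whose peak was shared with SOCS4. Of the other clamp loader genes, RFC2 had a peak in all 4 libraries and RFC5 in both DMSO libraries and ACSS2i replicate 2. Of 34 other mitotic genes, 31 had both DMSO peaks, 25 were kept (80.6%), 5 had a single ACSS2i peak and 1 was lost, the kinetochore gene NDC80, with folds of 5.07 and 8.54. The NDC80 peak was shared with METTL4. Of 24 genes of RB–E2F control, CDK inhibitors and checkpoint kinases, 19 had both DMSO peaks, 12 were kept, 5 had a single ACSS2i peak and 2 were lost. These were CCND3, a cyclin D gene with folds of 4.42 and 6.04, and E2F4, a repressive E2F with 3.77 and 7.11. The CCND3 peak was shared with TAF8. None of the 3 lists had a gained gene, and the background for lost and kept is the same 18.9% and 58% of all genes.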

How the data were processed

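ATAC-seq libraries of 786-O cells were read as pairs of 150 bases after 30 min of Tn5 treatment, per the labels' protocols. Build hg38 and the peak caller MACS2 2.1.2 are named in the submitters' processing notes, beside the read tools bcl2fastq 2.17, Trimmomatic 0.38 and Bowtie2, the alignment tools Picard 2.18.26 and SAMtools 1.9, and deepTools 3.5.0, bedtools and DiffBind. Their order, the caller's options and the filter behind the lists are not given in the sources used for this work. The deposited files are 1 peak list per library, with no pooling of libraries visible in them. They give each summit a score (10 times −log10 q, cut to a whole number, in the deposited lists, apart from 4 and 2 summits of DMSO replicates 1 and 2), a fold ratio over local background set by the authors' caller, and the authors' −log10 p and −log10 q, where −log10 q is at least 2. Folds and q are thus per peak and per library, and list length moves with whatever sets the calling power of a library.

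Summits were joined into peaks, and a gene took its strongest peak by q within 1000 bp of an end of its RefSeq span. Percentile is the peak's rank by q in its own list. Summit depth was solved from fold and p as whole fragments under a Poisson model, which succeeded for 100%, 100%, 99.99% and 99.99% of summits within 0.001, and was divided by the lowest local background of the library. Counts were set beside all protein-coding genes and beside genes of the same class of DMSO percentile (4 equal classes), in place of gene-by-gene matching. Python 3.11.15, numpy 2.4.6, pandas 2.3.3, SciPy 1.17.1 and matplotlib 3.10.9 were used, and the assignment was tested on simulated peaks.

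The genes, classes, role groups and pathway lists were chosen with earlier results of these data known. Genes given with values in the text were set by rule: lost or gained members, members with a single ACSS2i peak, the 2 members of highest DMSO percentile in each role group, the highest and lowest ranks and the widest peak. For the further pathway genes the rule took up to 4 lost or gained genes a list by DMSO percentile. Values of the remaining members were added after they had been seen. Alternatives were windows of 500 and 2000 bp, the gene start alone, the summit inside the window, −log10 q of at least 5, lists of equal length, the nearest summit, overlap of the DMSO peaks, CCNA2 counted with the S-phase genes, and each library left out. No sequence of chromosome 8 is printed.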

Additional observations from a re-analysis of the deposited data

How the results depend on the processing

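No paired analysis was possible because no result comes from a test: counts, folds, depths and ranks are given as values of each library. GINS2 was lost in all 15 settings run for the lost count (the main one and 14 alternatives), and BUB1 was lost in 12 of them. Settings that leave out a library could not undo a loss, so these counts overstate how far the calls were checked. Leaving out single libraries gave 2 to 10 lost genes in all, 1 to 5 S-phase, 1 to 6 mitotic, and 9 to 14 kept mitotic genes. Over all genes the same settings gave 19.4% to 38.1% lost and 50.6% to 77.2% kept, so the background moved as well. The totals also changed with the setting, between 34 and 40 members, 17 and 21 S-phase genes, and 15 and 16 mitotic genes. The lost S-phase count was 2 with a 500 bp window (CCNE2 added, 19.7% lost over all genes). It was 3 at −log10 q of at least 5 (E2F1 and RRM1 added, 29.8% lost over all genes). The lost mitotic count was 0 at that threshold and 0 with lists of equal length. The lost count over all members was 1 of 26 with lists of equal length (5.29% of all genes) and 1 of 29 when DMSO peaks had to overlap by 50% (13.6%). With DMSO replicate 2 and ACSS2i replicate 1 both left out, an alternative chosen after seeing the data, the lost S-phase count was 2 of 17 and the kept mitotic count 14 of 15 (23.3% lost and 76.7% kept over all genes). Counting any annotated start, also chosen after seeing the data, left 2 lost and 21 kept of 31 (17.8% and 59% over all genes). The shares of members with a peak at equal length were 27, 29, 24 and 28 of 40. Of the 104 alternative values, leaving out counts of gained genes, 85 stayed within 1.5 times the main count or within the spread of the replicates. The cause of the moves was not tested, beyond the fewer peaks or libraries that each alternative leaves. Folds of weak peaks such as MCM6 in ACSS2i replicate 1 rest on 12 fragments at the summit, and absence from a list means that a peak was not called at this depth.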
